A study of Mus musculus with 15 samples.

Results

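The libraries from untreated mouse pancreatic acini were described on their own, as the resting miRNA profile of these cells. Pancreatic acini are the clusters of exocrine cells that make, store and secrete digestive enzymes. Members were chosen by label alone: the 3 libraries titled as controls, of 15 in the series, with no agent added. They came from C57BL/6 mice of 7 to 8 weeks. The other 12 libraries received caerulein or the bile acid TLC-S, in 4 groups of 3, and entered no value given here. RNA was pooled from acinar preparations, and the labels do not say whether each library is such a pool, so the spread between the libraries may be technical. They are named control 1, control 2 and control 3, with no order implied.

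A miRNA is cut from a hairpin precursor as a short duplex of a 5p and a 3p arm. As a rule 1 arm, the guide, is kept in an Argonaute protein and the other, the passenger, is degraded. The guide finds its target mRNAs mainly through its seed, bases 2 to 8 counted from the 5′ end, so miRNAs with the same seed are treated as a family with overlapping targets. Hairpins that lie close together on a chromosome are often cut from a single primary transcript. In the pancreas, miR-148a, miR-216a, miR-216b and miR-217 are known for acinar cells, and miR-375 for islet cells.

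The sequences below carry the families and hairpins that hold most of the counts. Of 1915 mature names in the deposited table, 1623 matched a RefSeq mature sequence (GRCm38.p6), and the seed is in capitals. The first set shows the most abundant family, which shares a seed between 3 miRNAs from separate loci.
miR-148a-3p: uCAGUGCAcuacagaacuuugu
miR-152-3p: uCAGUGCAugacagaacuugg
miR-148b-3p: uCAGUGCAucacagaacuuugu
The next set shows the most abundant let-7 guides and let-7a-5p, which share a seed, beside let-7j, which falls outside that family by its seed.
let-7i-5p: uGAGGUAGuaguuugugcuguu
let-7f-5p: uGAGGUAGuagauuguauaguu
let-7g-5p: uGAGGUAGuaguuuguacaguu
let-7a-5p: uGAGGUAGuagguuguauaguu
let-7j: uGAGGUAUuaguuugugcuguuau
The epithelial miR-200 group is split by its seed into a pair of families.
miR-200b-3p: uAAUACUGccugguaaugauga
miR-200c-3p: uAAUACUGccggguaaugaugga
miR-429-3p: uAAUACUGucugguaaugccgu
miR-200a-3p: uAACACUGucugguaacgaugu
miR-141-3p: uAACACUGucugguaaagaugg
The acinar guides miR-217-5p, miR-216a-5p and miR-216b-5p come from neighbouring hairpins and have different seeds.
miR-217-5p: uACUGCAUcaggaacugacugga
miR-216a-5p: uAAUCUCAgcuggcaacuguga
miR-216b-5p: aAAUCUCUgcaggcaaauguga
The last set shows a family that stood apart in control 3, and a pair of near-identical miRNAs whose seeds differ because their 5′ ends are annotated 1 base apart.
miR-26a-5p: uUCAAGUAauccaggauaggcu
miR-26b-5p: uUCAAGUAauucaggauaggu
miR-101a-3p: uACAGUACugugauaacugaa
miR-101b-3p: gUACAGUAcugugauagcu

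The profile was read to a depth of 1846735 counts in control 1, 2255758 in control 2 and 2847458 in control 3. Levels are the share of a library's mature miRNA counts, in percent, and errors are SD over the 3 libraries. Most detected miRNAs have a length near 22 bases, so shares of different miRNAs can be compared without a length correction. Of the 1915 names, 628 had a count in at least 1 control, 416 in all 3, and 292 reached at least 10 counts in all 3. The 143 names seen in a single control had at most 8 counts there. The other 1287 names had 0 counts in every control, which allows up to 0.000162% of control 1, 0.000133% of control 2 and 0.000105% of control 3 (the share of 3 counts). Molecular identifiers are not described in the labels, and such limits and intervals reflect counting error alone.

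The resting profile was concentrated in few miRNAs. In control 1 and control 2, 31 miRNAs held 90% of counts, and in control 3 it took 22. For 50% of counts, 6 miRNAs were needed in control 1, 5 in control 2 and 1 in control 3. The 10 most abundant miRNAs of each library held 65.9% of control 1, 67.3% of control 2 and 78.0% of control 3. Over the 3 libraries, 20 miRNAs had a mean share of at least 1%, 54 of at least 0.1% and 146 of at least 0.01%.

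**Figure D1:**
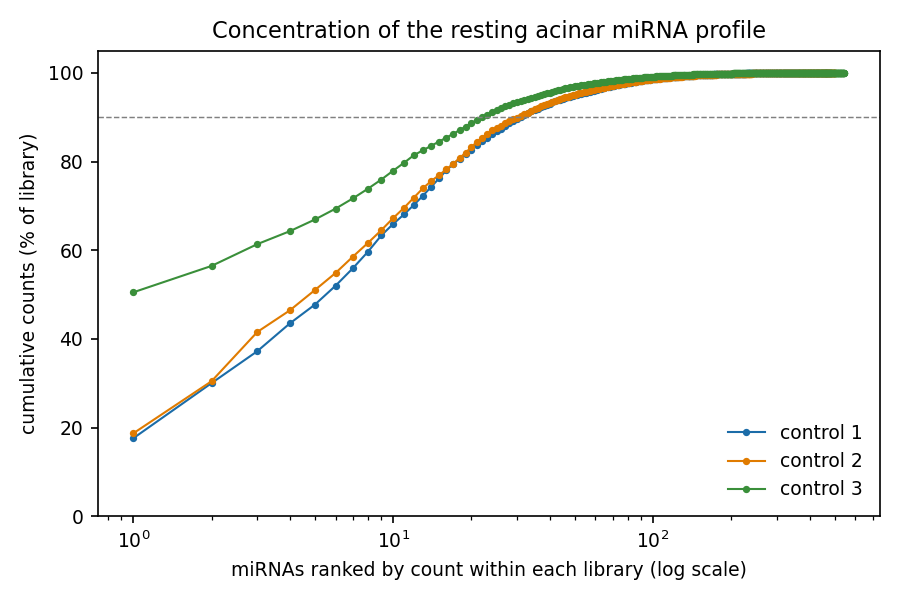
Cumulative share of library counts (%) against the number of miRNAs, ranked by count within each of the 3 control libraries (log scale). The dashed line marks 90%, which control 1 and control 2 reach at 31 miRNAs and control 3 at 22; control 3 starts at 50.5% with its first miRNA.

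miR-148a-3p, an acinar miRNA known to target the DNA methyltransferase Dnmt1, was the most abundant in each library. It held 17.6% of control 1, 18.7% of control 2 and 50.5% of control 3, a mean of 29.0% ± 18.7 (SD, n = 3). The 95% Clopper-Pearson interval was 17.6% to 17.7% in control 1 and 50.5% to 50.6% in control 3, so counting error is far smaller than the gap between these libraries. Control 3 lay apart from the other two, which were close to each other. Because a share is a part of a whole, the higher share of this miRNA in control 3 leaves less for the others there. Of the 145 other miRNAs with a mean of at least 0.01% of counts, 125 had their lowest share in control 3. Shares of other miRNAs are therefore also given below as a percent of the counts without miR-148a-3p where control 3 matters. From shares, a rise of miR-148a-3p and a fall of the other miRNAs cannot be told apart.

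miR-375-3p, best known for control of insulin secretion in islets, was second by its mean. It held 12.4% of control 1, 11.1% of control 2 and 4.91% of control 3. Without miR-148a-3p in the total it was 15.1%, 13.7% and 9.93%, with control 3 still the lowest. miR-217-5p, a pancreatic miRNA known to target Sirt1, held 7.20%, 11.7% and 5.95% in controls 1, 2 and 3. It was the second most abundant miRNA of control 2 and of control 3, and ranked 3 in control 1.

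Ranks were stable for the abundant miRNAs. Of the 10 most abundant by mean, 9 were within the first 10 of all 3 libraries, and 17 miRNAs were within the first 20 of all 3. miR-200a-3p held 4.68% ± 1.68 and miR-200b-3p 3.72% ± 1.22; both keep epithelial cells from turning mesenchymal by repressing Zeb1 and Zeb2. let-7i-5p held 3.38% ± 1.07, let-7f-5p 3.05% ± 0.531 and let-7g-5p 3.04% ± 0.807, members of a family linked to differentiation. These 3 let-7 levels did not differ beyond their spread, and neither did miR-200b-3p from let-7i-5p. miR-30a-5p held 3.19% ± 1.03 and miR-27b-3p 2.49% ± 0.675.

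miR-21a-5p, a miRNA that rises in many injured tissues, was already among the abundant miRNAs of untreated acini. It held 2.14% of control 1, 2.12% of control 2 and 1.71% of control 3. Without miR-148a-3p the values were 2.60%, 2.61% and 3.46%, and control 3 was the highest instead of the lowest. miR-101a-3p, a repressor of Ezh2, stood at 1.81% ± 0.684 and miR-22-3p at 1.73% ± 0.759. The remaining 7 of the first 20 ran from 1.61% ± 0.591 for miR-26a-5p to 1.07% ± 0.233 for miR-200c-3p. In order these were miR-26a-5p, miR-99a-5p, miR-7a-5p, miR-152-3p, miR-216a-5p, miR-143-3p and miR-200c-3p, and neighbours among them lay within each other's spread. Of the 20, 10 were 5p arms and 10 were 3p arms.

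**Figure D2:**
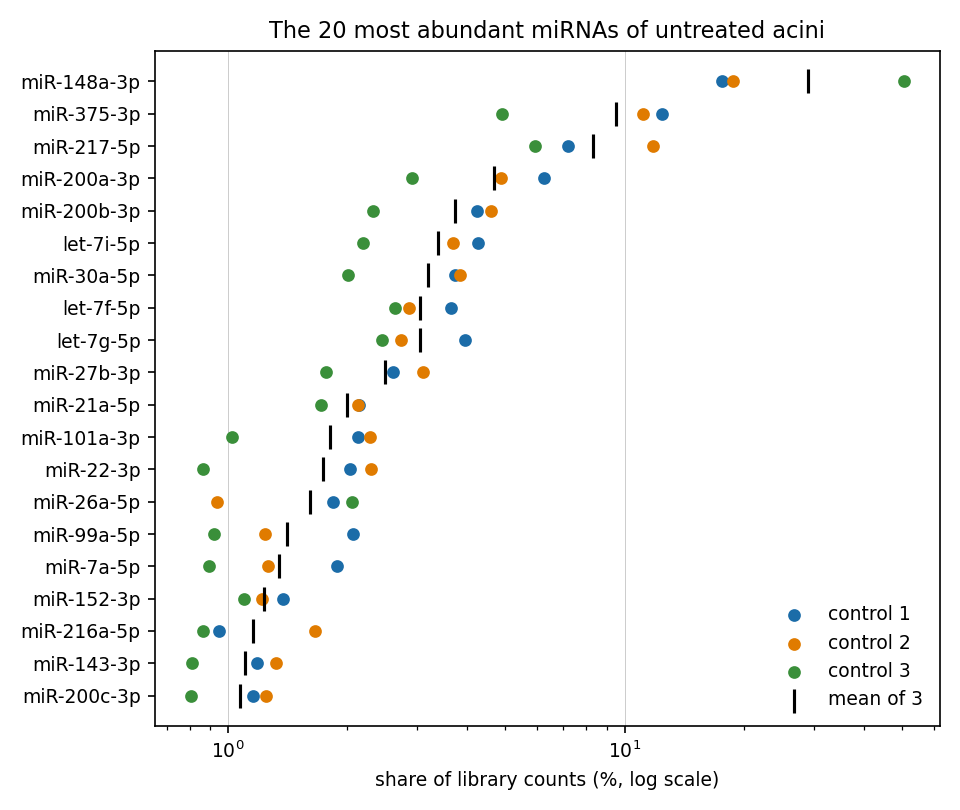
Share of library counts (%, log scale) of the 20 miRNAs of highest mean share, with 1 point for each of the 3 control libraries and a bar at their mean. miR-148a-3p is at 50.5% in control 3 against 17.6% and 18.7% in the others, and most other miRNAs have their lowest point in control 3.

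The label of the tissue was checked against lists of miRNAs known for particular cell types. The 8 acinar arms, from the miR-148a, miR-216a, miR-216b and miR-217 hairpins, were all detected with at least 10 counts in each library. They summed to 27.2% of control 1, 33.9% of control 2 and 58.2% of control 3. Without miR-148a-3p the acinar sums were 11.6%, 18.6% and 15.6%, and control 2 was then the highest. In bulk RNA a lower share of a marker can mean fewer cells of a type or less of the miRNA in each cell, and these cannot be told apart.

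Islet miRNAs summed to 14.4%, 12.5% and 5.86%, of which miR-375-3p made up most. Of the other islet members, miR-7a-5p held 1.35% ± 0.498, miR-7b-5p 0.0556% ± 0.0258 and miR-184-3p 0.0163% ± 0.00292. miR-375-5p, the other arm of the miR-375 hairpin, had 0 counts in all 3 libraries. The 7 epithelial members summed to 12.0%, 11.0% and 6.30%, most of it miR-200a-3p and miR-200b-3p. miR-203-3p held only 0.0753% ± 0.0111, and miR-205-5p had 27, 31 and 21 counts.

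Mesenchymal miRNAs, known for fibroblasts and smooth muscle, summed to 1.27% ± 0.316, with miR-143-3p at 1.11% ± 0.262 and miR-199a-3p at 0.0790% ± 0.0191. miR-199b-3p, which is not on this list, has the same sequence as miR-199a-3p and held 0.0393% ± 0.00946. The level of each rests on how the authors divided these counts. Endothelial cells were represented by miR-126a-3p at 0.673% ± 0.0990 and miR-126a-5p at 0.0656% ± 0.0106. These arms are cut from a hairpin within Egfl7 (chromosome 2 from 26591357 to 26591429, GRCm38). Both lists were above the blood cell lists by more than the spread: leukocyte miRNAs summed to 0.00692% ± 0.00239 and erythrocyte miRNAs to 0.0122% ± 0.00236. Among leukocyte members, miR-150-5p, a lymphocyte miRNA, had 122, 163 and 87 counts. miR-142a-3p, found in all leukocytes, had 2, 6 and 5 counts, and miR-223-3p, a myeloid miRNA, had 9, 9 and 3.

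Markers of other tissues were uneven. The liver miRNA miR-122-5p had 20, 19 and 15 counts and miR-122-3p had 0. The neuronal miRNA miR-124-3p had 0 counts in every control, and the heart and muscle miRNAs miR-208a-3p, miR-208b-3p and miR-499-5p also had 0. Of the other muscle list members, miR-1a-3p had 27, 36 and 18 counts, and miR-206-3p, a skeletal muscle miRNA, had 15, 41 and 16. miR-133a-3p had 5, 4 and 1 counts and miR-133b-3p had 1, 0 and 0. The neuronal list as a whole summed to 0.0283% ± 0.00957, most of it miR-138-5p with 538, 511 and 351 counts. The miR-192 and miR-194 guides of gut and liver epithelium were at 0.0585% ± 0.00518 and 0.0316% ± 0.00417. Both had 522 counts or more in every control, far above the 3-count limit. The other member of that list, miR-215-5p, had only 0, 0 and 1 counts.

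Grouped by seed, the matched names fell into 1352 seeds, of which 454 had a count and 55 had 2 or more members with a count. Names with a sequence held 84.1% of control 1, 85.0% of control 2 and 92.7% of control 3. miR-375-3p, miR-143-3p, miR-378a-3p, miR-30b-5p and miR-30d-5p are among the names with no entry, and they entered no family. The 10 most abundant families held 66.1%, 67.1% and 82.3% of the libraries.

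The miR-148a-3p family led with 19.1%, 19.99% and 51.7%. Its seed is carried by 3 hairpins at separate loci, and miR-148a-3p was 92.5% of the family in control 1, 93.7% in control 2 and 97.7% in control 3. miR-152-3p, from an intron of Copz2, held 1.38%, 1.22% and 1.10% of the libraries. miR-148b-3p was rare, at 0.0709% ± 0.0293. miR-148a-3p and miR-148b-3p differ at 2 of 22 bases, and miR-148a-3p and miR-152-3p at 3 of 21, so assignment of reads between them may be uncertain.

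The let-7 family was second by its summed share, with 14.1% of control 1, 11.0% of control 2 and 8.74% of control 3. Without miR-148a-3p in the total it held 17.2%, 13.5% and 17.7%, so control 3 was then the highest. All 11 names with this seed had a count, and 3 of them carried most of it. let-7i-5p was 29.9% of the family, let-7f-5p 27.0% and let-7g-5p 27.0%. let-7c-5p followed with 5.03%, let-7b-5p with 4.47% and miR-98-5p with 3.16%. let-7a-5p was only 2.33% of the family, although it differs from let-7f-5p at 1 of 22 bases. let-7j differs from let-7i-5p at 1 of the 22 bases they share, and that base lies in the seed. It held 0.202%, 0.195% and 0.0725% of the libraries. Levels of these near-identical miRNAs are uncertain to the extent that reads were divided between them.

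The families of miR-200b-3p and miR-200a-3p stood at similar levels. The first held 5.55%, 5.98% and 3.24% and the second 6.38%, 4.96% and 2.99% in controls 1, 2 and 3, and neither was above the other in all 3 libraries. miR-200b-3p was 75.6% of its family and miR-200c-3p 21.7%, whereas miR-200a-3p was 97.9% of its own and miR-141-3p 2.11%. miR-217-5p was the only matched name with its seed and ranked 3 among families, with a mean of 8.30%. miR-375-3p, which entered no family for lack of a sequence, had a higher mean of 9.48%.

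In the miR-30 family with sequences, miR-30a-5p was 87.9%, miR-30e-5p 8.11% and miR-30c-5p 4.004%, and the family held 3.63% ± 1.14. These values leave out miR-30d-5p, at 0.480% ± 0.102 of counts, and miR-30b-5p, at 0.205% ± 0.0697, for lack of a sequence. miR-30d-5p had a higher mean share than miR-30e-5p, at 0.294% ± 0.0944. miR-27b-3p, a regulator of lipid genes, was 93.4% of its family and miR-27a-3p 6.60%. The family of miR-26a-5p held 2.46% of control 1, 1.33% of control 2 and 2.74% of control 3, and it was the only one of the 10 families lowest in control 2 by the share of all counts. Without miR-148a-3p the let-7 family was lowest there too, and so was the rest of the miR-148a-3p family, with 1.75%, 1.56% and 2.43%. miR-21a-5p and miR-101a-3p were the only detected members of the last 2 families. By the annotated 5′ ends, miR-101b-3p had another seed than miR-101a-3p, although 15 bases of miR-101b-3p from base 2 match miR-101a-3p from base 1. It held 0.325% ± 0.113.

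**Figure D3:**
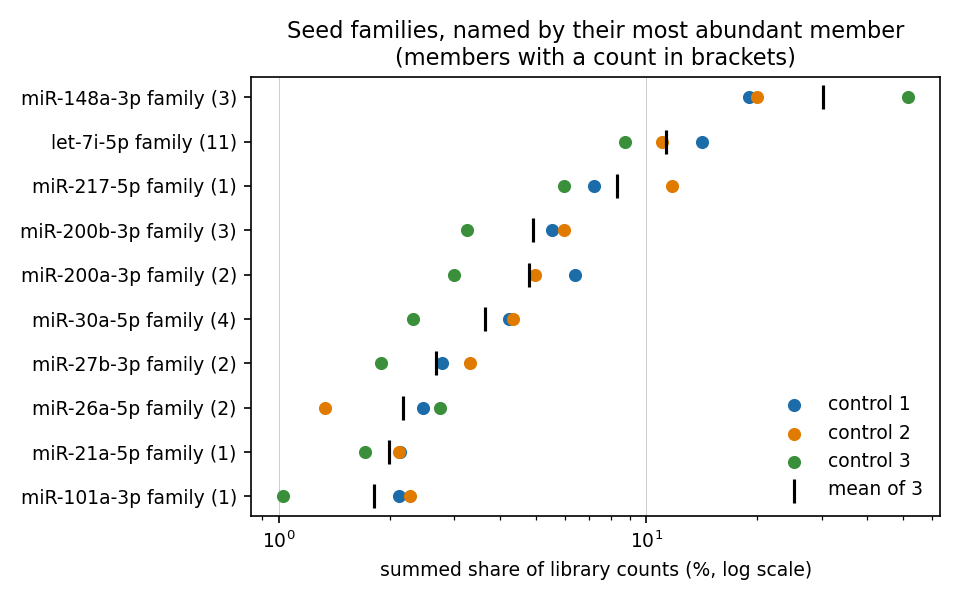
Summed share of library counts (%, log scale) of the 10 most abundant seed families, with 1 point per control library and a bar at the mean; brackets give the members with a count. The miR-148a-3p family is at 51.7% in control 3 against 19.1% and 19.99%, and the miR-26a-5p family is lowest in control 2 at 1.33%.

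A base that the grouping did not use, the first, was shared by most of the profile. Among names with a sequence, miRNAs that start with U held 89.1% of the counts of control 1, 89.5% of control 2 and 94.7% of control 3. Without miR-148a-3p, which starts with U, the values were 86.2%, 86.5% and 88.5%. Of the 18 most abundant miRNAs with a sequence among the first 20, 16 start with U, and miR-22-3p and miR-99a-5p start with A. By number of miRNAs the share was lower: 47.8% of 255 miRNAs with at least 10 counts in all 3 libraries, 35.2% of 287 seen below that, and 39.8% of 1081 at 0. The median GC content of the same classes was 47.6%, 50% and 54.5%.

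Arm use was compared within hairpins, where a ratio does not depend on scaling between libraries. Of 854 hairpins with both arms in the table, 166 had at least 50 counts of both arms together in every control. The 5p arm had more counts in 98 of them and the 3p arm in 68. In 40 of the 166 hairpins an arm is shared by name with another hairpin. Their arm shares also depend on how the authors divided the counts of that arm. Arms of the same sequence under different names were not counted as shared. This was so for miR-199b-3p, which has the sequence of miR-199a-3p. The arm with more counts, here named the guide, held a median of 99.3% of the hairpin's counts, with quartiles of 93.7% and 99.9%. In 90 hairpins it held at least 99%, in 43 from 90% to 99%, and in 33 less. The passenger arm was at 0 in all 3 libraries for 32 hairpins. In all, passenger arms of these hairpins held 1.34% of control 1, 1.25% of control 2 and 0.874% of control 3.

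Guide and passenger arms differed in their first base, which did not enter the choice of the guide. Pairs were counted by hairpin, and an arm shared between hairpins was counted with each of them. The guides and passengers counted are therefore not all distinct miRNAs. In 144 pairs with both sequences, 92 guides and 17 passengers start with U, whereas 13 guides and 63 passengers start with C. The pattern was found for both arms: 60 of 90 guides on the 5p arm and 32 of 54 on the 3p arm start with U. The median GC content was 45.5% for guides and 50% for passengers.

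The 2 most abundant hairpins with both arms detected are printed with the mature arms in capitals, to show how the arms lie in the stem. Mir148a is intergenic (GRCm38 chr6:51269812-51269910, minus strand). Mir217 sits in an intron of Gm12082 (GRCm38 chr11:28763728-28763835, plus strand).
Mir148a: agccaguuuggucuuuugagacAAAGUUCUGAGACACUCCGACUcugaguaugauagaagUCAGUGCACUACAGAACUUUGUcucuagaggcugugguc
Mir217: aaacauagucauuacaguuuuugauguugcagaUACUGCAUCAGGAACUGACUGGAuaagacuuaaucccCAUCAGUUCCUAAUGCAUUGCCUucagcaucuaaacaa

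Mir217 gave a steady arm ratio. miR-217-5p had 305, 329 and 305 counts for each count of miR-217-3p in controls 1, 2 and 3. Mir148a did not. miR-148a-5p had 5439, 3669 and 3968 counts, while miR-148a-3p had 325306, 422328 and 1438688. The guide thus had 59.8 counts for each passenger count in control 1, 115 in control 2 and 363 in control 3. As a percent of all counts other than miR-148a-3p, miR-148a-5p was at 0.357%, 0.200% and 0.282%, so the passenger of control 3 lay between the other libraries while the guide lay above both.

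The other abundant hairpins kept their guide in every library. For miR-200a, the 3p arm had 60.8, 54.7 and 40.01 counts for each 5p count, and for miR-200b 114, 87.1 and 121. The 3p guides of miR-27b, miR-101a, miR-22 and miR-152 held 99.97%, 99.96%, 99.5% and 98.4% of their hairpins. The 5p guides let-7i-5p, miR-30a-5p, let-7g-5p and miR-21a-5p held 99.9%, 99.7%, 99.9% and 99.99%. miR-216a-5p held 95.6% ± 1.15 of its hairpin. The neighbouring acinar hairpin Mir216b was less one-sided: miR-216b-5p held 81.3% ± 5.62, and miR-216b-3p reached 19.1, 17.5 and 33.6 counts per 100 counts of miR-216b-5p in controls 1, 2 and 3.

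Near-equal arms were seen in hairpins of low or middling abundance. miR-28a-5p held 50.3% ± 2.32 of its hairpin, miR-130b-5p 49.98% ± 12.5, miR-423-5p 52.7% ± 9.63, miR-3068-5p 46.2% ± 9.07, miR-324-5p 55.3% ± 13.3 and miR-136-5p 55.8% ± 11.3. In 7 of 166 hairpins the arm with more counts differed between libraries, and these 6 were among them, with miR-700 as the other. For miR-423, the 5p arm had 1495, 1227 and 842 counts and the 3p arm 986, 962 and 1169, so control 3 had the opposite order. For hairpins this close to equal, the spread between libraries does not allow a guide to be named.

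**Figure D4:**
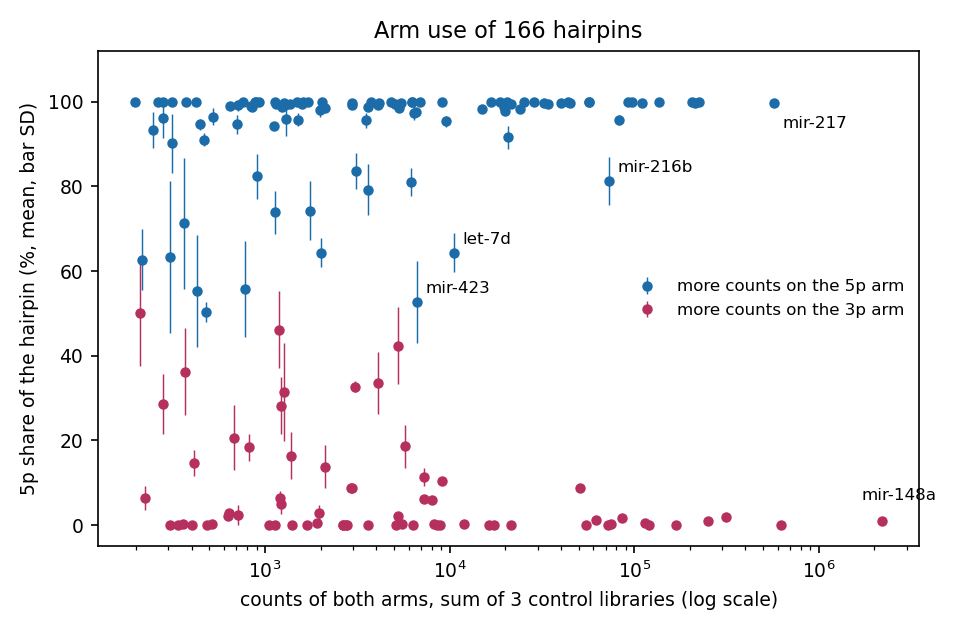
Share of the 5p arm in the counts of its hairpin (%, mean and SD over 3 control libraries) against the counts of both arms summed over these libraries (log scale), for 166 hairpins coloured by the arm with more counts. Most hairpins lie at the top or bottom edge; mir-216b, let-7d and mir-423 lie between, at 81.3%, 64.4% and 52.7%.

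Of 1193 precursors, 1179 were placed on GRCm38. Hairpins on the same strand with starts within 10 kb of a neighbour formed 80 clusters with 330 hairpins. These clusters gave 39.0% of the counts of control 1, 41.2% of control 2 and 25.9% of control 3. Without miR-148a-3p they gave 47.3%, 50.7% and 52.4%. The 2 most abundant miRNAs came from lone hairpins: the nearest start to Mir148a was 697 kb away and the nearest to Mir375 (chromosome 1 from 74900658 to 74900721) was 506 kb away.

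The cluster of Mir216a and Mir217 had the highest mean, with 8.23% of control 1, 13.5% of control 2 and 6.88% of control 3. This lead lay within the spread: the miR-200b cluster described next held more of control 1, and without control 2 the means were 7.55% and 8.11%, in the opposite order. miR-217-5p had 7.57, 7.11 and 6.86 counts for each count of miR-216a-5p. Mir216b lies 10821 bases before Mir216a and so just outside the 10 kb limit. With it, the 3 hairpins held 9.27%, 15.0% and 7.57%, and miR-217-5p had 8.26, 9.20 and 11.4 counts for each count of miR-216b-5p. All 3 miR-216 and miR-217 guides were highest in control 2.

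The cluster of Mir200b, Mir200a and Mir429 (chromosome 4 from 156053905 to 156055750, minus strand) held 10.8%, 9.74% and 5.44%. Mir429 gave 36.7-fold less than Mir200a, although the hairpins lie within 1846 bases. The other miR-200 cluster, Mir200c with Mir141 on chromosome 6, held 1.18% ± 0.252. Unequal output was also seen for Mir23b, Mir27b and Mir24-1 on chromosome 13. That cluster held 2.70% ± 0.703, and Mir23b gave 27.3-fold less than Mir27b. Mir29a with Mir29b-1 on chromosome 6 held 0.839% ± 0.193.

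Among the other clusters of the first 10, Mirlet7f-2 with Mir98, in an intron of Huwe1 on chromosome X, held 1.99% ± 0.418. Mirlet7d, Mirlet7f-1 and Mirlet7a-1 on chromosome 13 held 1.72% ± 0.284, and Mir99a with Mirlet7c-1 on chromosome 16 held 1.69% ± 0.659. Mir143 with Mir145a held 1.16% ± 0.284 and miR-143-3p had 24.99, 22.2 and 34.9 counts for each count of miR-145a-5p. The tenth, Mir26a-2 with Mir546 within Ctdsp2, held 0.806% ± 0.295, with 0 counts on Mir546. For miRNAs made from more than 1 locus the output cannot be told apart by locus: miR-26a-5p was deposited with near-equal counts on each of its 2 hairpins, and miR-24-3p, miR-181a-5p and miR-30c-5p were split equally too. Sums for clusters with such a hairpin, including Mir24-1, Mir29b-1, Mir26a-2 and the let-7 hairpins other than Mirlet7d, rest on how the authors divided these counts. Mirlet7d and Mir98 are not such hairpins, yet some of their deposited counts are not whole either. Mirlet7d had 3457.2 counts in control 1 and Mir98 had 7997.37 in control 2. miR-92a-3p was not split equally, with 91.6%, 94.6% and 90.5% on the hairpin of the miR-17-92 cluster.

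By position, hairpins outside annotated genes gave 48.5% ± 12.0 of counts, those in introns 33.1% ± 7.72, those in exons 17.8% ± 4.198, and those opposite a gene 0.498% ± 0.149. A hairpin was counted in exons if it overlapped an exon of any annotated transcript of a gene around it. Other transcripts of that gene may have an intron there. Without miR-148a-3p, introns led in each library, with 45.2%, 46.6% and 49.0%. The imprinted Dlk1-Dio3 region on chromosome 12, from Mir770 to Mir410, has 55 hairpins in the table. Of these, 40 had a count, and together they held only 0.0738% of counts.

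The spread between the untreated libraries sets how closely any of these levels is known. Over 146 miRNAs with a mean share of at least 0.01%, the coefficient of variation (CV, SD divided by mean) of the share had a median of 31.8% and quartiles of 22.4% and 41.7%. Without miR-148a-3p in the total the median was 20.1%. The biological coefficient of variation from edgeR with TMM scaling was 0.272 over 322 miRNAs. On log2 shares, control 1 and control 2 correlated at r = 0.984, control 1 and control 3 at 0.981 and control 2 and control 3 at 0.974, across 146 miRNAs, which are not independent replicates.

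By the share of all counts, the 6 most variable miRNAs were miR-3068-3p with a CV of 66.8%, miR-148a-3p with 64.5%, miR-500-3p with 64.4%, miR-362-3p with 63.6%, miR-199b-5p with 55.0% and miR-361-3p with 54.4%. miR-362-3p and miR-500-3p come from hairpins of the same cluster on chromosome X. miR-362-3p held 0.0500%, 0.0789% and 0.0170% and miR-500-3p 0.0144%, 0.0265% and 0.00636% in controls 1, 2 and 3, so both were highest in control 2 and lowest in control 3, where 125 of 145 miRNAs had their lowest share. The other arm, miR-362-5p, had another order, with 0.0421%, 0.0374% and 0.0165%. The 6 least variable were miR-181a-5p with 1.52%, miR-192-5p with 8.85%, miR-23b-3p with 10.6%, miR-152-3p with 11.3%, miR-216a-3p with 12.1% and miR-21a-5p with 12.2%. This order depends on the total: without miR-148a-3p, the CV of miR-181a-5p was 29.3% and miR-24-3p was lowest with 2.18%.

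Leaving miR-148a-3p out of the totals lets the other miRNAs of control 3 be compared apart from its higher share. For each 100 counts of all other miRNAs, miR-148a-3p had 21.4 counts in control 1, 23.0 in control 2 and 102.1 in control 3. Of the 145 other miRNAs, 8 lay over 2-fold from the mean of controls 1 and 2 in control 3, with 5 higher and 3 lower (5.52% of those compared). They were chosen after their values were seen and are described without a test. Beyond 2-fold on the same scale, control 1 and control 2 differed for 4 miRNAs, control 1 and control 3 for 4 and control 2 and control 3 for 11.

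The higher ones include members of the families printed above. miR-148b-3p, with the seed of miR-148a-3p, was at 0.0734%, 0.0593% and 0.210% of counts without miR-148a-3p, a log2 difference of 1.66. It differs from miR-148a-3p at 2 of 22 bases. For each 100 counts of miR-148a-3p, miR-148b-3p had 0.343, 0.258 and 0.206 counts in controls 1, 2 and 3, the lowest in control 3. Whether reads of miR-148a-3p were assigned to miR-148b-3p was not tested. miR-30b-5p was at 0.209%, 0.194% and 0.576% (log2 difference 1.52). miR-26a-5p was at 2.23%, 1.16% and 4.15% (1.29) and miR-26b-5p at 0.758%, 0.483% and 1.40% (1.17). miR-26a-5p and miR-26b-5p thus had the same order of libraries, at a ratio of 2.94, 2.39 and 2.97. They are cut from hairpins on separate chromosomes, within the related genes Ctdspl, Ctdsp2 and Ctdsp1. Their sequences differ at 2 of 21 bases, so assignment of reads between them may be uncertain. The fifth was miR-125b-5p (1.14). The lower ones were miR-362-3p (-1.20), miR-3068-3p (-1.18) and miR-185-5p (-1.02).

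Neighbours in the same seed family or cluster did not all follow. miR-152-3p, with the seed of miR-148a-3p, differed by 0.49. miR-30d-5p, from the hairpin next to that of miR-30b-5p on chromosome 15, differed by 0.16, and it had 3.22, 3.31 and 1.27 counts for each count of miR-30b-5p. Cell type lists beside this, also without miR-148a-3p, were 17.5%, 15.4% and 11.8% for islet, 0.912%, 1.03% and 1.26% for endothelial, 1.64%, 1.89% and 1.87% for mesenchymal and 0.00914%, 0.0110% and 0.00866% for leukocyte miRNAs. Their part in the differences of control 3 was not tested. Without control 3, the mean share of miR-148a-3p was 18.2% and the median CV over miRNAs was 15.8%.

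**Figure D5:**
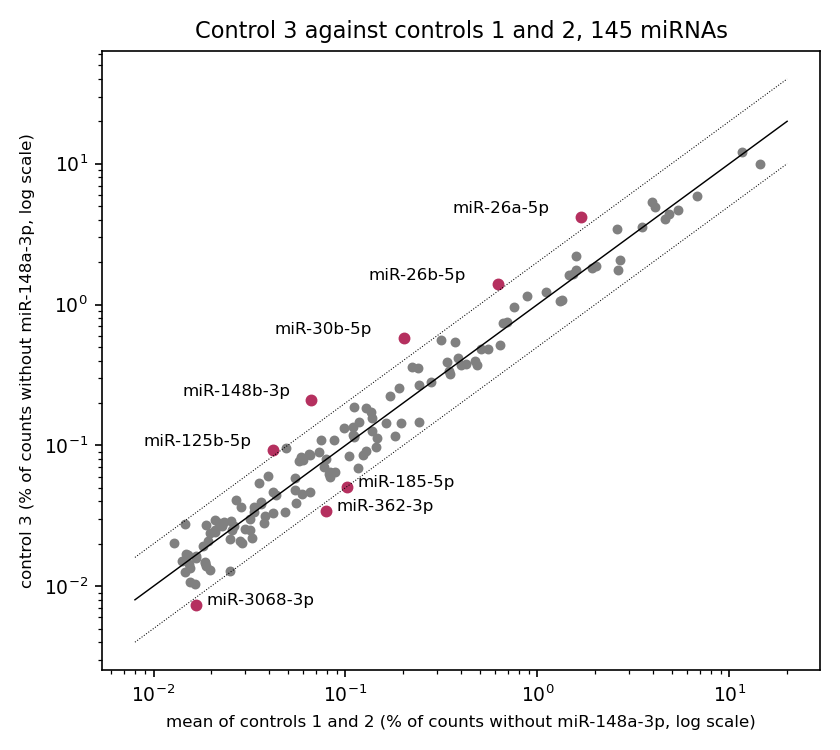
Share of counts without miR-148a-3p (%, log scales) in control 3 against the mean of control 1 and control 2, for 145 miRNAs with a mean share of at least 0.01%. The solid line marks equality and the dotted lines 2-fold; the 8 named miRNAs lie beyond them, 5 above and 3 below.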

How the data were processed

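Small RNA libraries were made from mirVana total RNA and read on an Illumina HiSeq, per the labels' protocols. Cutadapt, Bowtie and the builds GRCm38 and mm10 are named in the submitters' processing notes. Their versions and the program that counted reads are not stated there. The deposited mature table holds estimated counts (expected counts), whole and within 0.5 of the sum of the deposited counts per precursor, of which 74.5% of values above 0 were whole within 1e-06. The deposited RPM values, an alternative here, lay within 0.0233 of those computed from the precursor counts and their library totals.

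Only the 3 control columns were used. Shares are percent of a library's mature counts, with no test, since there is 1 group. Scaling and dispersion used edgeR 4.0.16 (TMM, intercept only, miRNAs with at least 10 counts in 2 libraries), which was tested on simulated data. No library repeated another: over miRNAs, chi-square divided by its degrees of freedom was at least 212 for each pair. Sequences came from RefSeq (GRCm38.p6) and positions from GENCODE M21, with 33 precursors placed by RefSeq names. Unequal ligation of miRNAs to adapters was not tested. Named miRNAs were the 20 most abundant, the 10 leading families and clusters, hairpins ranked by abundance or arm equality, the 6 most and 6 least variable, and abundant marker list members; others were named after their values were seen. The rule, lists and members were chosen with earlier results of these data known.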

Additional observations from a re-analysis of the deposited data

How the results depend on the processing

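Several summaries moved when miR-148a-3p was left out of the total. Without it, the remaining 19 of the 20 most abundant miRNAs held 78.4%, against 84.8% for all 20 of the full total; the 10 families held 60.9% in place of 71.8%, clusters 50.1% in place of 35.4%, and the median CV was 20.1% in place of 31.8%. TMM scaling gave a median CV of 20.5%, and no minimum level gave 53.0%. Without 1 control at a time the median CV ran from 15.8% to 34.2%, with the lowest value without control 3. For arms, the median guide share was 99.1% at a minimum of 10 counts, 99.7% at 500 and 99.9% with none, and 99.05% to 99.5% without 1 control at a time. The 5p arm was the guide of 55 and the 3p arm of 40 hairpins at 500 counts, and of 214 and 178 with no minimum. Clusters within 3 kb gave 24.2%. The biological coefficient of variation was 0.380 with library totals, an alternative chosen after seeing the data. Another 46 values under alternatives of these summaries stayed within the spread or within 1.5 times. The cause of these shifts was not tested. No paired analysis was possible because the profile holds a single group. Depth limits the 143 names seen in a single control, and no order among them can be read.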
